A study of Mus musculus with 28 samples.

Results

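The tumor suppressor p53, encoded by *Trp53*, is a transcription factor held at a low level in unstressed cells by the ubiquitin ligase MDM2 and stabilized by DNA damage and other stresses. It then switches on genes that arrest the cell cycle, trigger apoptosis, feed back on p53 itself or carry signals between cells. In skeletal muscle, several of these targets, foremost *Cdkn1a* (p21) and *Eda2r*, are also known from differentiation, denervation and wasting, and *Cdkn1a* can be induced there without p53. Described here are *Trp53* itself and 8 of its targets, *Cdkn1a*, *Eda2r*, *Bax*, *Bbc3*, *Mdm2*, *Ccng1*, *Trp53inp1* and *Phlda3*. These 9 genes were chosen by symbol, with earlier results of these data known. Each matched 1 Ensembl gene among the 55359 identifiers that both count tables hold, and all 9 passed the filter on low counts in both cohorts.

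The counts come from polyadenylated RNA of the tibialis anterior (TA), a fast muscle of the lower leg, from 28 mice in 7 groups of 4. In the *Bin1* cohort, wild-type (WT) mice and *Bin1* mck-/- mice, in which *Bin1* is deleted in muscle, received placebo, and a further group of *Bin1* mck-/- mice received tamoxifen. In the *Dnm2* cohort, WT mice and *Dnm2* S619L/+ mice, which carry a heterozygous point mutation of *Dnm2*, each received placebo or tamoxifen. *Bin1* encodes amphiphysin 2, a protein that curves membranes, *Dnm2* encodes dynamin 2, a GTPase that cuts them, and both mouse lines model centronuclear myopathy. Tamoxifen, a ligand of estrogen receptors, was given in the diet. All mice were C57BL/6N and 8 weeks old. The name mck refers to muscle creatine kinase, so the deletion concerns muscle fibers and other cells of the muscle keep *Bin1*. Since the 2 cohorts differ in RNA input and fragmentation time as well as in the mouse line, groups were compared within a cohort. Sex is not part of the sample labels.

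Depth was 24671835 to 35136327 reads counted on genes per mouse in the *Bin1* cohort and 15586333 to 109710886 in the *Dnm2* cohort, in which the shallowest and the deepest library are both WT on placebo. *Bin1* was at 540 ± 15.7 CPM (reads of a gene scaled to a fixed library total; SD, n = 4) in WT, 56.2 ± 5.10 in *Bin1* mck-/- on placebo and 40.9 ± 6.16 in *Bin1* mck-/- on tamoxifen, with no overlap between WT and deleted mice. The point mutation of *Dnm2* does not show in a count, and *Dnm2* was at 62.7 to 67.6 CPM on average in the 4 groups of that cohort. Genes that define skeletal muscle fibers were abundant in every group (*Acta1* 23220 to 41090 CPM on average). *Xist* RNA, which is made in females, was present in all 12 mice of the *Bin1* cohort, in 2 of 4 mice in each of 3 groups of the *Dnm2* cohort, and in all 4 *Dnm2* S619L/+ mice on tamoxifen. Genes of bone, a tissue that lies beside the TA muscle, summed to 1426 to 3559 CPM in WT on tamoxifen and 76.6 to 2610 in *Dnm2* S619L/+ on tamoxifen, against 12.8 to 60.8 CPM in the placebo groups of the cohort. In a whole muscle, fewer cells of a type and less RNA per cell cannot be told apart.

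All levels below are CPM scaled by TMM factors within a cohort, so they are comparable between mice of a cohort but not between cohorts. Differences are log2 fold changes with standard errors (SE) and Benjamini-Hochberg adjusted p-values over all genes, from edgeR's quasi-likelihood test fitted to all mice of a cohort. A gene is called changed at an adjusted p under 0.05. To rank genes within a mouse, CPM was divided by the summed length of a gene's exons in kilobases (kb). On this scale, *Ccng1* (261 CPM per kb) and *Phlda3* (108) stood far above the others in WT muscle of the *Dnm2* cohort on placebo. *Mdm2* followed at 11.1, *Cdkn1a* at 5.53, *Bax* at 5.32, *Trp53inp1* at 3.41 and *Trp53* at 3.33, and *Eda2r* (1.65) and *Bbc3* (0.432) came last. The mice overlapped between *Cdkn1a* and each of *Bax*, *Trp53inp1* and *Trp53*, and between *Trp53inp1* and *Trp53*. In *Dnm2* S619L/+ on placebo, *Ccng1* (215 CPM per kb) and *Phlda3* (158) still led, but *Cdkn1a* came next at 47.4 and *Eda2r* after it at 18.9, above *Mdm2* at 13.1, with mice that overlapped between *Eda2r* and *Mdm2*.

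p53 binds DNA as a tetramer, on pairs of sites that each hold a core of 4 bases, which begins with C, ends with G and has A or T at both inner positions. The simplest form of this pattern (a core, 6 bases of any kind, and a further core) was searched in the promoter windows that RefSeq gives for GRCm38.p6. A window runs from 250 bases before a transcription start to 50 after it, 300 bases in all. The pattern reads as itself on both strands. It occurs in 2371 of the 32851 windows (7.22%). For 8 of the 9 genes the table has 11 windows, of which 3 hold the pattern, 1 each of *Cdkn1a*, *Bbc3* and *Trp53*, and *Trp53inp1* has no entry. These stretches are shown because *Cdkn1a*, *Bbc3* and *Trp53* are among the genes that were higher in *Dnm2* S619L/+ muscle below. The 54 bases around each match are written 5′ to 3′ on the + strand, which is the strand of all 3 genes, with the cores in capitals.
*Cdkn1a*, chr17:29090911-29090964: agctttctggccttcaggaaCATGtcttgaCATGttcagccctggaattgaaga
*Bbc3*, chr7:16309469-16309522: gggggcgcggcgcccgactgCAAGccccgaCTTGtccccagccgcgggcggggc
*Trp53*, chr11:69580267-69580320: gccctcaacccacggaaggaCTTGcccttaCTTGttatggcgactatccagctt
The *Cdkn1a* stretch lies in the window of the more upstream of its 2 starts, and the window of the other start has no match. The windows of *Eda2r*, *Bax*, *Mdm2*, *Ccng1* and *Phlda3* hold no match, which says only that these letters are not in those 300 bases. A match is a description of the sequence and not evidence of binding in these muscles, which hold no measurement of p53 on DNA.

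**Figure D1:**
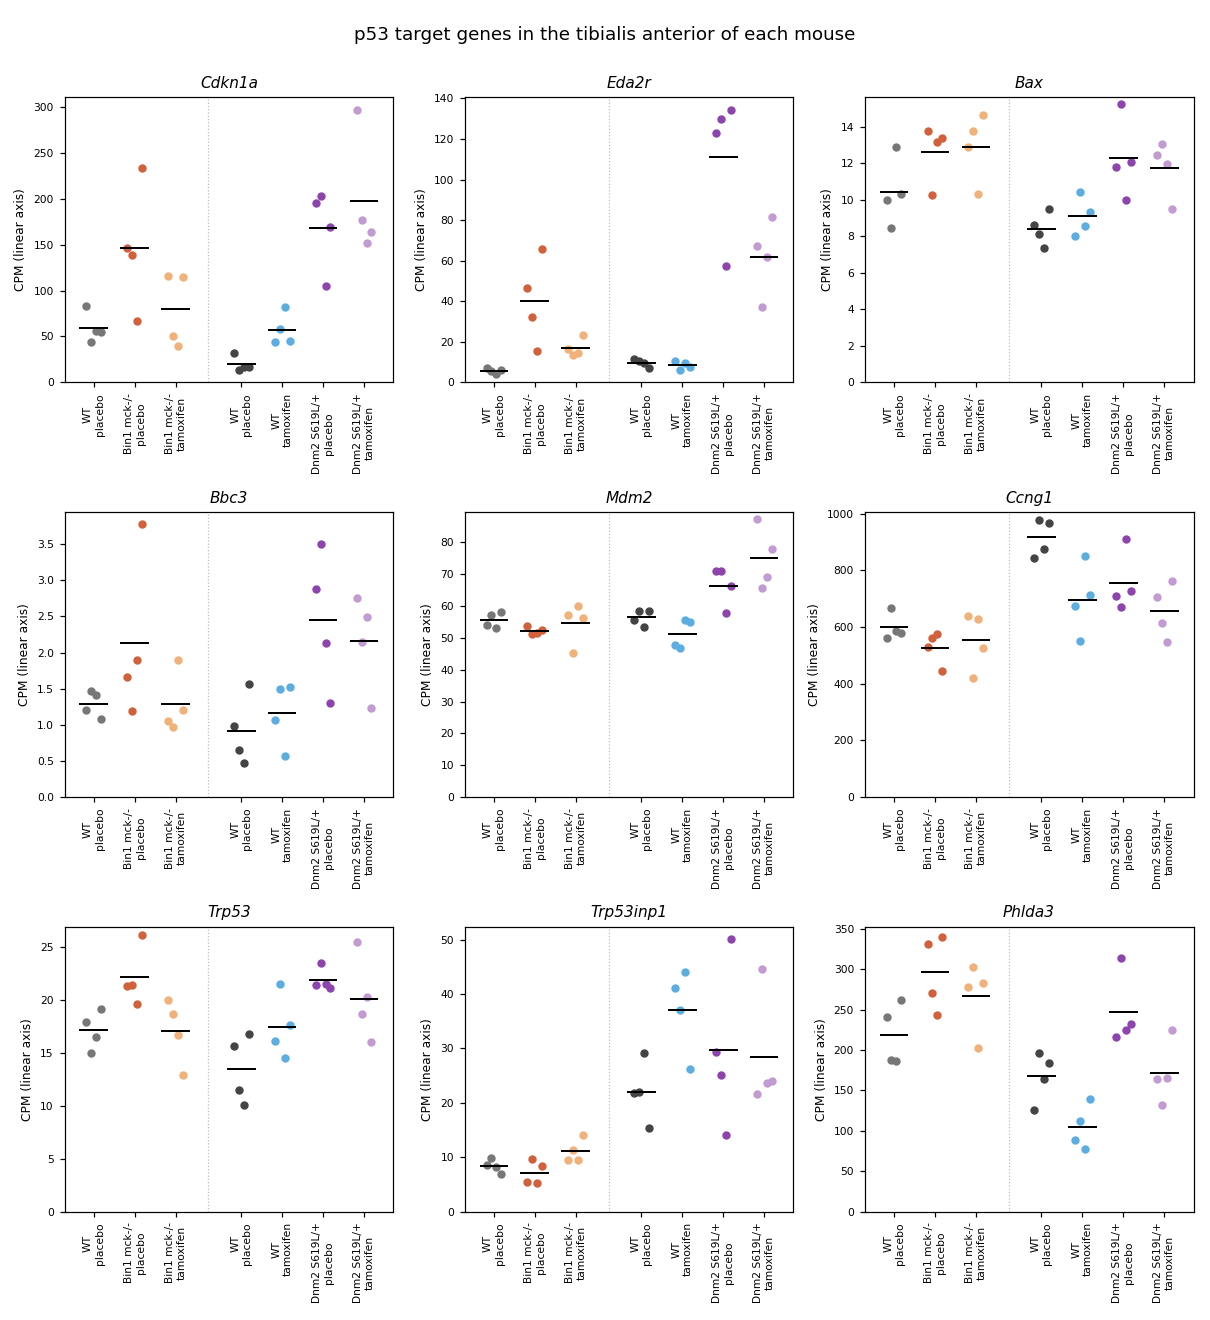
Level of each of the 9 genes in each mouse (CPM, linear axes from 0), with 7 groups of 4 mice along the horizontal axis, a bar at the group mean and a dotted line between the *Bin1* cohort (left) and the *Dnm2* cohort (right). *Cdkn1a* and *Eda2r* in *Dnm2* S619L/+ mice lie above every WT mouse of the cohort, whereas *Mdm2* stays between 45.3 and 87.5 CPM in all 28 mice.

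*Cdkn1a* encodes p21, the inhibitor of cyclin-dependent kinases through which p53 arrests the cell cycle. In the *Dnm2* cohort on placebo, the 4 WT mice had 31.7, 12.96, 16.8 and 17.2 CPM of *Cdkn1a* and the 4 *Dnm2* S619L/+ mice had 195, 204, 105 and 170 CPM. The groups do not overlap, and the lowest mutant was more than 3 times as high as the highest WT mouse. The log2 fold change was 3.09 ± 0.33 (SE, n = 4 and 4), an 8.50-fold difference, with an adjusted p of 3.49e-05. It stayed between 2.95 and 3.43 when any 1 of the 16 mice was left out, and was 2.91 (adjusted p = 0.00405) among the 10 mice with *Xist* reads alone. In the *Bin1* cohort, *Cdkn1a* was at 82.9, 44.4, 55.5 and 54.5 CPM in WT and at 147, 139, 66.8 and 234 CPM in *Bin1* mck-/- on placebo. Here 3 of the 4 deleted mice were above every WT mouse and 1 lay among them, and the difference of 1.304 ± 0.44 was not called (adjusted p = 0.136 with edgeR, 0.0414 with DESeq2).

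*Eda2r* encodes the receptor of ectodysplasin A2, a p53 target that signals to NF-κB and is known from muscle wasting. Of the 9 genes it had the largest difference between mutant and WT muscle in both cohorts. In the *Dnm2* cohort it was at 11.7, 10.6, 9.49 and 7.17 CPM in WT and at 123, 130, 57.3 and 134 CPM in *Dnm2* S619L/+ on placebo, so that the lowest mutant was more than 4 times as high as the highest WT mouse. The log2 fold change was 3.50 ± 0.30, or 11.3-fold (adjusted p = 7.79e-06). In the *Bin1* cohort it was at 7.05, 5.57, 4.06 and 5.82 CPM in WT and at 46.7, 32.4, 15.3 and 65.8 CPM in *Bin1* mck-/- on placebo, again without overlap. The log2 fold change was 2.82 ± 0.40, or 7.05-fold (adjusted p = 0.0115). The call was kept in 10 of the 12 fits without 1 mouse and missed the threshold without WT replicate 6 (adjusted p = 0.0538) or WT replicate 8 (0.0512), at log2 fold changes of 2.81 and 2.83.

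*Trp53*, the gene of p53 itself, was at 15.6, 11.5, 10.0 and 16.8 CPM in WT of the *Dnm2* cohort and at 21.4, 23.5, 21.5 and 21.1 CPM in *Dnm2* S619L/+ on placebo. The mutants were tightly grouped above every WT mouse, and the log2 fold change was 0.68 ± 0.17, or 1.61-fold (adjusted p = 0.0106). In the *Bin1* cohort the deleted mice (21.3, 21.4, 19.6 and 26.1 CPM) were also all above WT (17.9, 15.0, 16.5 and 19.1 CPM), but the smaller difference of 0.37 ± 0.14 was not called (adjusted p = 0.158). A transcript count does not measure the amount or the activity of p53 protein, which is regulated mainly by degradation.

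Both apoptosis genes were called higher in *Dnm2* S619L/+ on placebo. *Bax*, whose product permeabilizes the outer mitochondrial membrane, was at 8.59, 8.12, 7.35 and 9.47 CPM in WT of the *Dnm2* cohort and at 11.8, 15.2, 9.96 and 12.1 CPM in *Dnm2* S619L/+ on placebo, without overlap. Its log2 fold change was 0.54 ± 0.14 (adjusted p = 0.0143). *Bbc3*, which encodes the BH3-only protein PUMA, was close to the limit of these libraries, with 6 to 97 reads per WT mouse and 33 to 128 per *Dnm2* S619L/+ mouse. It was at 0.983, 0.651, 0.474 and 1.56 CPM in WT and at 2.89, 3.50, 2.13 and 1.31 CPM in the mutants, where the lowest mutant lay below the highest WT mouse. Its log2 fold change of 1.31 ± 0.39 was called (adjusted p = 0.0234), but 5 of the 16 fits without 1 mouse lost the call. In the *Bin1* cohort neither was called, at 0.28 ± 0.16 for *Bax* and 0.70 ± 0.36 for *Bbc3*.

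*Mdm2*, *Ccng1*, *Trp53inp1* and *Phlda3* feed back on p53 or on survival signalling: MDM2 degrades p53, cyclin G1 acts with a phosphatase on MDM2, TP53INP1 assists p53 and takes part in autophagy, and PHLDA3 restrains AKT. None of these genes was called between mutant and WT mice on placebo in either cohort. Of all genes tested, 21.9% were called in the *Dnm2* and 2.61% in the *Bin1* cohort. *Mdm2* was at 53.4 to 58.6 CPM in WT of the *Dnm2* cohort and at 57.7 to 70.9 CPM in *Dnm2* S619L/+ (log2 fold change 0.23 ± 0.10, adjusted p = 0.112). *Ccng1* was at 844 to 979 CPM in WT and at 670 to 911 CPM in the mutants (-0.28 ± 0.14, adjusted p = 0.163). *Trp53inp1* spread from 14.033 to 50.1 CPM among the mutants, around the 15.4 to 29.1 CPM of WT (0.44 ± 0.33, adjusted p = 0.352). *Phlda3* did separate the groups, at 126, 196, 164 and 184 CPM in WT and at 217, 314, 225 and 232 CPM in the mutants. Its difference of 0.56 ± 0.20 missed the threshold narrowly (adjusted p = 0.0577) and passed it with DESeq2 (adjusted p = 0.0402). Within the *Bin1* cohort the log2 fold changes were -0.09 ± 0.10 for *Mdm2*, -0.18 ± 0.14 for *Ccng1*, -0.22 ± 0.20 for *Trp53inp1* and 0.44 ± 0.16 for *Phlda3*.

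Counted together, 5 of the 9 genes were called higher in *Dnm2* S619L/+ than in WT on placebo and 4 were not called, where 12.1% of the 15439 genes tested were called higher, 9.81% lower and 21.9% in either direction. Because the 9 genes were chosen with earlier results of these data known, such shares describe the choice and do not test it. The median log2 fold change was 0.56 over the 9 genes and 0.02 over all genes tested. With library size alone in place of TMM factors, the median over all genes moved to 0.29, the share of called genes that were higher went from 55.2% to 91.1%, and 7 of the 9 genes were called, *Mdm2* and *Phlda3* in addition, where 34.2% of all genes were called. *Cdkn1a* was then at 3.34 and *Eda2r* at 3.78. Among the 10 mice with *Xist* reads, with 2 mice in each placebo group, *Cdkn1a* and *Eda2r* were called and the others were not. Over all genes, 1124 were called among these mice, against 3382 with all mice. Within the *Bin1* cohort, 1 of the 9 genes was called higher in *Bin1* mck-/- than in WT on placebo, where 1.99% of the 14841 genes tested were called higher, 0.627% lower and 2.61% in either direction. The median was 0.37 over the 9 genes and 0.01 over all genes. Marker genes of other cells also differed on placebo. Those of fibroblasts summed to 907 to 1258 CPM in WT and 1600 to 2288 in *Dnm2* S619L/+. Within the *Bin1* cohort they summed to 785 to 1018 in WT and 1702 to 4170 in *Bin1* mck-/-. Leukocyte markers summed to 18.1 to 30.6 and, with overlap, 24.6 to 111.5 CPM in the *Dnm2* cohort. In the *Bin1* cohort the sums were 13.2 to 20.3 and 46.7 to 95.2. Their part in the 9 genes was not tested.

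The difference between mutant and WT muscle, taken with its sign, was higher in the *Dnm2* cohort for 8 of the 9 genes by estimate. The exception was *Ccng1*, which was lower in the mutants of both cohorts and more so in the *Dnm2* cohort. Tested as a difference of differences across both cohorts with edgeR, the gap between the cohorts was called for 0 of the 9 genes, where 0.312% of all genes were called. At an unadjusted p under 0.05 were 2 of the 9 and 13.5% of all genes, and DESeq2 called 1 of the 9 and 1.39% of all genes. For *Cdkn1a* the difference was 1.78 ± 0.54 on the log2 scale (adjusted p = 0.140 with edgeR and 0.0325 with DESeq2) and for *Eda2r* 0.67 ± 0.48 (adjusted p = 0.575). Mouse line and library protocol cannot be told apart in this comparison.

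**Figure D2:**
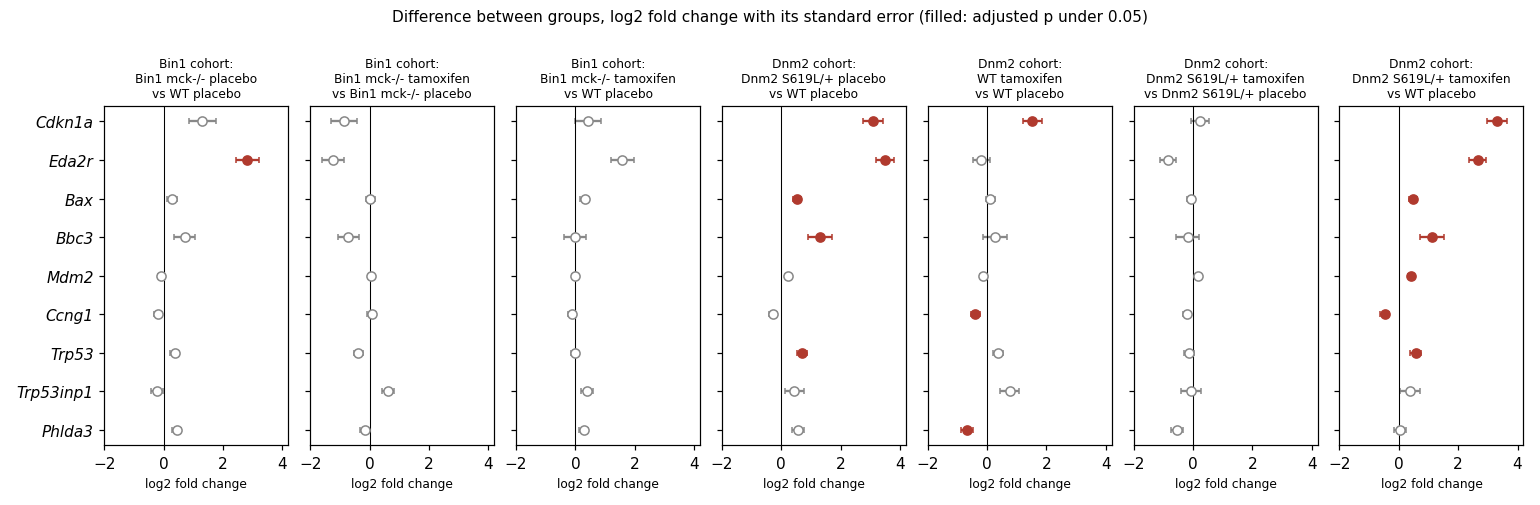
Log2 fold changes of the 9 genes (points) with their standard errors (bars) in the 7 comparisons of 2 groups, filled where the adjusted p is under 0.05. *Cdkn1a* and *Eda2r* lie farthest to the right where *Dnm2* S619L/+ mice are compared with WT, and only *Eda2r* is filled in the *Bin1* cohort.

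In WT mice of the *Dnm2* cohort, tamoxifen was compared with placebo, and *Cdkn1a* and *Eda2r* parted. *Cdkn1a* was at 43.5, 57.6, 82.4 and 44.6 CPM on tamoxifen, above all 4 placebo mice, with a log2 fold change of 1.52 ± 0.31, or 2.88-fold (adjusted p = 0.00272). It ranged from 1.29 to 1.86 when 1 mouse was left out, and was 1.05 (adjusted p = 0.0839) among the mice with *Xist* reads. *Eda2r* was at 10.7, 5.94, 9.46 and 7.73 CPM, within the range of the placebo mice but for 1, and its log2 fold change was -0.20 ± 0.28 (adjusted p = 0.625). *Phlda3* was lower on tamoxifen, at 88.9, 112, 77.4 and 140 CPM, with a log2 fold change of -0.68 ± 0.20 (adjusted p = 0.0206) and 1 mouse on tamoxifen above the lowest placebo mouse. *Ccng1* was lower too, at 673, 552, 850 and 713 CPM, by a small difference of -0.40 ± 0.14 (adjusted p = 0.0480) with overlapping groups. Of the 16 fits without 1 mouse, 13 kept the call of *Phlda3* (adjusted p up to 0.0700) and 5 that of *Ccng1* (up to 0.153). Both of these lower calls were lost with library size alone, at -0.40 for *Phlda3* (adjusted p = 0.0982) and -0.12 for *Ccng1* (0.509). *Bax*, *Bbc3*, *Mdm2*, *Trp53* and *Trp53inp1* were not called, with log2 fold changes from -0.14 ± 0.10 for *Mdm2* to 0.76 ± 0.33 for *Trp53inp1*.

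Thus 1 of the 9 genes was higher and 2 were lower on tamoxifen in WT, where 15.8% of all genes were called higher, 11.9% lower and 27.7% in either direction. Library size alone moved the median of all genes from -0.04 to 0.24 and the share of called genes that were higher from 57.1% to 92.0%. Beside these values, all 8 bone markers were called higher on tamoxifen (median log2 fold change 7.59), with *Ibsp*, *Sp7* and *Tnn* at 0.393 CPM or less on average in WT on placebo and at 22.9 to 502 on tamoxifen. Of the fibroblast markers, 5 of 6 were called higher, with *Col1a1* at 240 CPM on average on placebo and 5340 on tamoxifen, and so were 4 of the 5 leukocyte markers tested (of 7). Their part in the values of *Cdkn1a*, *Phlda3* and *Ccng1* was not tested.

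**Figure D3:**
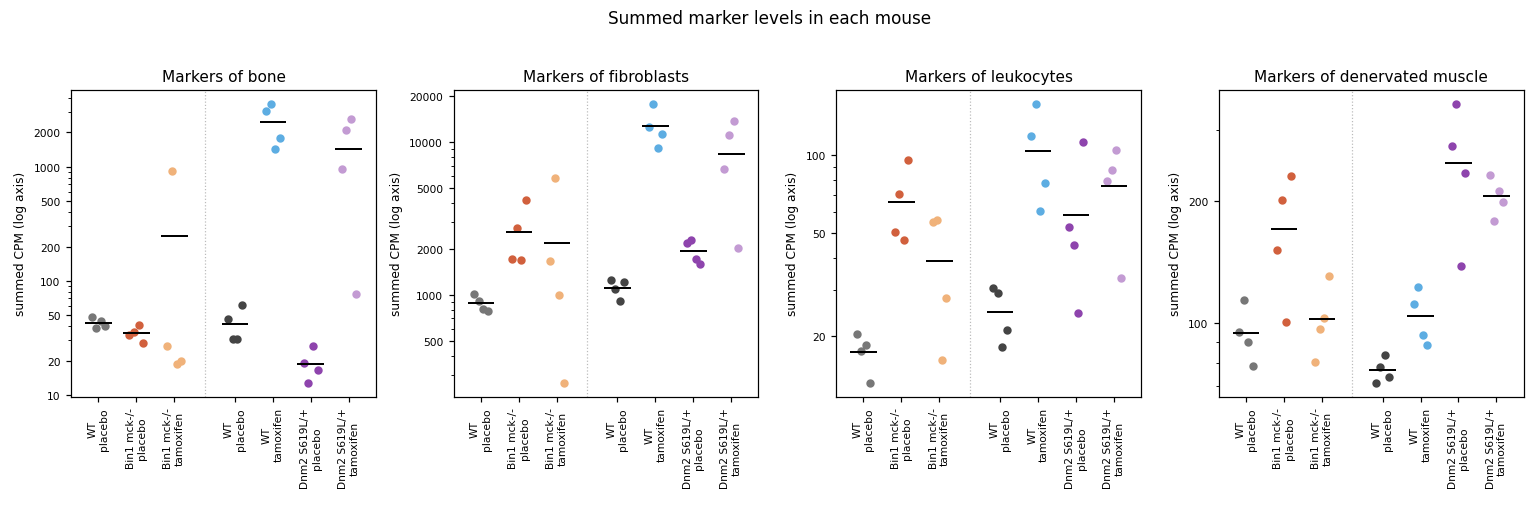
Summed CPM (log axes) of the marker genes of bone, fibroblasts, leukocytes and denervated muscle in each mouse, with a bar at the mean of each group of 4 mice and a dotted line between the *Bin1* cohort (left) and the *Dnm2* cohort (right). Bone markers reach 1426 CPM or more in all 4 WT mice on tamoxifen, in 3 of 4 *Dnm2* S619L/+ mice on tamoxifen (966 or more) and in 1 of 4 *Bin1* mck-/- mice on tamoxifen (925), and stay at 76.6 CPM or less elsewhere.

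Whether tamoxifen moved the 9 genes in the mutants was asked in both cohorts. In *Dnm2* S619L/+ mice, *Eda2r* was at 67.2, 37.4, 61.7 and 81.5 CPM on tamoxifen. Of the 4 mice on placebo, 3 were above all of these and 1 (57.3 CPM) lay among them, and the log2 fold change of -0.84 ± 0.27 was not called (adjusted p = 0.0699 with edgeR, 0.0274 with DESeq2). Without that placebo mouse it was -1.06 (adjusted p = 0.0158), and without the tamoxifen mouse with few bone markers, replicate 4, it was -1.001 (0.0297). These were the only 2 calls of *Eda2r* in the 16 fits without 1 mouse, and in the others the adjusted p ran up to 0.203. *Cdkn1a* was at 297, 177, 152 and 164 CPM on tamoxifen, overlapping the 105 to 204 CPM of the placebo mice, with a log2 fold change of 0.23 ± 0.30 (adjusted p = 0.680). *Phlda3* was at 164, 132, 165 and 225 CPM (-0.53 ± 0.20, adjusted p = 0.117). The other 6 genes had log2 fold changes from -0.20 ± 0.14 for *Ccng1* to 0.18 ± 0.10 for *Mdm2*. In all, edgeR called 0 of the 9 genes, where 5.22% of all genes were called higher, 3.05% lower and 8.27% in either direction. An unadjusted p under 0.05 was found for 2 of the 9 and for 25.4% of all genes, and DESeq2 called 1 of the 9 and 12.2% of all genes. *Xist* reads were present in all 4 mice on tamoxifen and in 2 of the 4 on placebo, and with *Xist* as a covariate the differences were -0.90 for *Eda2r* (adjusted p = 0.112) and 0.10 for *Cdkn1a* (0.910).

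In *Bin1* mck-/- mice, *Eda2r* was at 16.5, 13.5, 14.2 and 23.4 CPM on tamoxifen, of which 2 lay below every placebo mouse and 2 in the lower part of the placebo range. Its log2 fold change was -1.24 ± 0.37 (adjusted p = 0.0943 with edgeR, 0.00448 with DESeq2), and -1.51 (adjusted p = 0.0101) without placebo replicate 3, the mouse with 15.3 CPM. This was the only 1 of the 12 fits without 1 mouse that called *Eda2r*, and in the others the adjusted p ran up to 0.216. *Cdkn1a* was at 116, 50.4, 40.04 and 115 CPM, which spans the level of WT and the lower part of the placebo range (-0.87 ± 0.44, adjusted p = 0.292). *Trp53inp1* was at 9.41, 11.3, 9.58 and 14.035 CPM on tamoxifen and at 5.53, 9.59, 5.32 and 8.34 CPM on placebo (0.62 ± 0.21, adjusted p = 0.102 with edgeR, 0.0486 with DESeq2). EdgeR called 0 of the 9 genes, where 1.52% of all genes were called higher, 1.61% lower and 3.13% in either direction. Of the 9 genes 3 had an unadjusted p under 0.05, as had 20.7% of all genes, and DESeq2 called 2 of the 9 and 8.24% of all genes. Library size alone moved the median of all genes by -0.16, and the share of called genes that were higher from 48.5% to 21%.

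The change with tamoxifen was then compared between groups of mice. Within the *Dnm2* cohort, the effect in *Dnm2* S619L/+ minus the effect in WT was -1.30 ± 0.43 for *Cdkn1a* (adjusted p = 0.230) and -0.64 ± 0.39 for *Eda2r* (0.510). EdgeR called 0 of the 9 genes, where 0.259% of all genes were called, and DESeq2 called 0 of the 9 and 2.12% of all genes. An unadjusted p under 0.05 was found for 2 of the 9 and for 13.5% of all genes. Between the mutants of the 2 cohorts, the effect in *Dnm2* S619L/+ minus that in *Bin1* mck-/- was 1.13 ± 0.53 for *Cdkn1a* (adjusted p = 0.196) and 0.44 ± 0.47 for *Eda2r* (0.599). Again 0 of the 9 genes were called by edgeR or DESeq2, where edgeR called 1.71% and DESeq2 8.28% of all genes. An unadjusted p under 0.05 was found for 1 of the 9 and for 24% of all genes.

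Mutants on tamoxifen were also set against WT on placebo, which are the WT mice already used above, so that the comparisons are not independent. In the *Dnm2* cohort, 6 of the 9 genes were called higher and 1 lower, where 15.8% of all genes were called higher, 13.1% lower and 28.9% in either direction. *Cdkn1a* was higher by 3.32 ± 0.33 (9.96-fold, adjusted p = 4.86e-05), *Eda2r* by 2.66 ± 0.29 (6.31-fold, adjusted p = 9.52e-05), *Bbc3* by 1.12 ± 0.39, *Trp53* by 0.56 ± 0.17 and *Bax* by 0.48 ± 0.14. Of the 16 fits without 1 mouse, 10 kept the call of *Bbc3* (adjusted p up to 0.105). The call of *Trp53* was kept in 12 (up to 0.0831) and that of *Bax* in 12 (up to 0.06325). The groups overlapped in *Bbc3* and in *Trp53*. *Mdm2*, which had not been called on placebo, was at 87.5, 65.8, 69.1 and 78.0 CPM, above every WT mouse (0.41 ± 0.10, adjusted p = 0.00787). *Ccng1* was lower by -0.48 ± 0.14 (adjusted p = 0.0195), at 708, 615, 546 and 761 CPM, below every WT mouse. *Trp53inp1* and *Phlda3* were not called, at 0.37 ± 0.33 and 0.03 ± 0.20. With *Xist* as a covariate 3 of the 9 were called, namely *Cdkn1a*, *Eda2r* and *Mdm2*, and among the mice with *Xist* reads 2 were, *Cdkn1a* and *Eda2r*. Over all genes, 1099 were called among the mice with *Xist* reads, against 4461 with all mice. Without replicate 4, the 1 mouse of the group with few bone markers, *Cdkn1a* was at 3.39 and *Eda2r* at 2.498. With library size alone the median of all genes was 0.35 and 93.2% of the called genes were higher, against 54.6%, and *Ccng1* was no longer called (-0.13, adjusted p = 0.394).

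Within the *Bin1* cohort, edgeR called 0 of the 9 genes between *Bin1* mck-/- on tamoxifen and WT on placebo, where 0.465% of all genes were called higher, 0.384% lower and 0.849% in either direction. At an unadjusted p under 0.05 were 1 of the 9 and 14.9% of all genes, and DESeq2 called 1 of the 9 and 3.67% of all genes. *Eda2r* was the gene in both of the latter counts. All 4 mice on tamoxifen had more *Eda2r* than any WT mouse, with a log2 fold change of 1.57 ± 0.39 (2.98-fold), an adjusted p of 0.0959 with edgeR and 0.000272 with DESeq2. *Cdkn1a* differed by 0.44 ± 0.44 (adjusted p = 0.697).

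**Figure D4:**
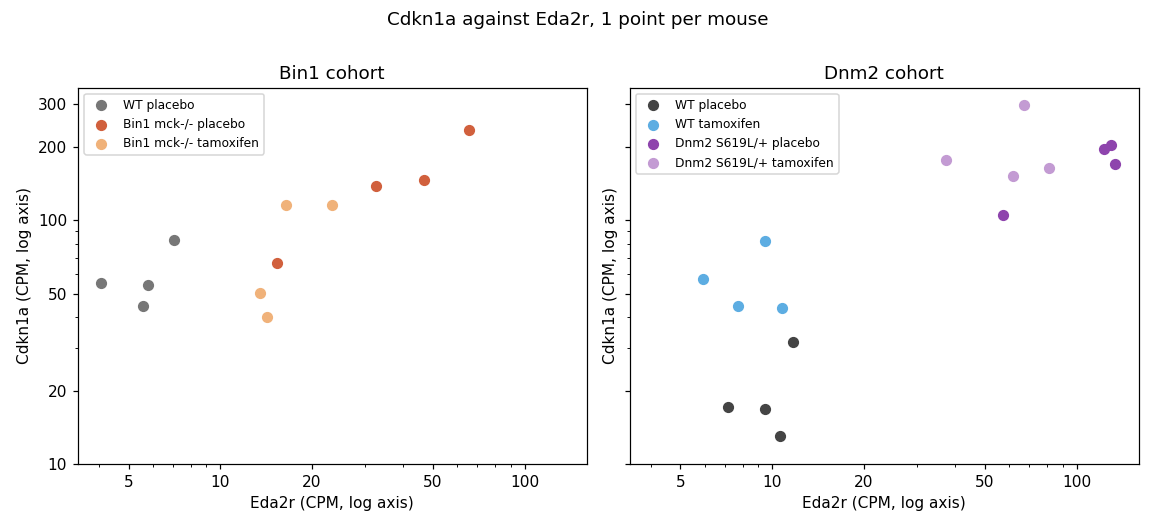
*Cdkn1a* against *Eda2r* in each mouse (CPM, log axes), with 12 mice of the *Bin1* cohort on the left and 16 of the *Dnm2* cohort on the right. WT mice on tamoxifen (blue) lie above WT mice on placebo in *Cdkn1a* and beside them in *Eda2r*, and *Dnm2* S619L/+ mice lie high in both.

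Across mice, *Cdkn1a* and *Eda2r* followed each other closely (Pearson r of log2 CPM 0.814 over the 12 mice of the *Bin1* cohort and 0.831 over the 16 of the *Dnm2* cohort), which mostly repeats the difference between groups. Once the group means were subtracted, r over the 28 mice was 0.631 (permutation within groups, p = 0.00266, adjusted p = 0.0213 over the 8 other genes) and Spearman's rho was 0.539 (permutation p = 0.0105, adjusted p = 0.0840). Without the 2 mice farthest from the median of *Cdkn1a*, r was 0.469. It was 0.802 within the *Bin1* cohort and 0.392 within the *Dnm2* cohort. The other 7 genes had r from -0.167 (*Ccng1*) to 0.355 (*Bax*) with *Cdkn1a*, with permutation p-values from 0.10 to 0.766 and adjusted values of 0.301 or more. By the lower of the 2 cohorts' r, the genes most like *Cdkn1a* among the 14572 tested in both cohorts were *Sox11* (0.931 in the *Bin1* and 0.915 in the *Dnm2* cohort), *Hsf2bp* (0.920 and 0.898), *Fosl1* (0.895 and 0.899), *Tubb6* (0.913 and 0.895) and *Tnfrsf23* (0.888 and 0.946). Most like *Eda2r* were *Tmbim1* (0.957 and 0.936), *Nfkb2* (0.934 and 0.954), *Myog* (0.930 and 0.927), *Serpinb1a* (0.926 and 0.950) and *Cpne2* (0.958 and 0.925). None of these 10 genes is a member of the 9. These values are descriptions over mice that share groups, cohort and library protocol.

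Markers of denervated muscle include *Myog* and the acetylcholine receptor subunit *Chrna1*. The summed level of the 8 markers was 71.4 to 83.6 CPM in WT of the *Dnm2* cohort on placebo, 138 to 348 in *Dnm2* S619L/+ on placebo, 179 to 233 in *Dnm2* S619L/+ on tamoxifen and 88.6 to 123 in WT on tamoxifen. Of the 8 markers, 7 were called higher in *Dnm2* S619L/+ than in WT on placebo, beside 12.1% of all genes. In WT the sum was thus higher on tamoxifen than on placebo without overlap, but the markers were divided. There 2 of the 8 were called higher and 2 lower, beside 15.8% and 11.9% of all genes. On average *Ncam1* rose from 8.61 to 42.2 CPM and *Runx1* from 2.06 to 21.4. *Chrna1* fell from 22.5 to 6.10 CPM and *Chrnd* from 5.26 to 0.984, and *Myog* was at 4.59 and 2.96 with overlap. *Eda2r* was not called there. Within the *Bin1* cohort the sum was 78.5 to 114 in WT, 101 to 231 in *Bin1* mck-/- on placebo and 80.1 to 131 on tamoxifen. On placebo 3 of 8 were called higher, beside 1.99% of all genes. The part of these fibers in the level of *Eda2r* and *Cdkn1a* was not tested.

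**Figure D5:**
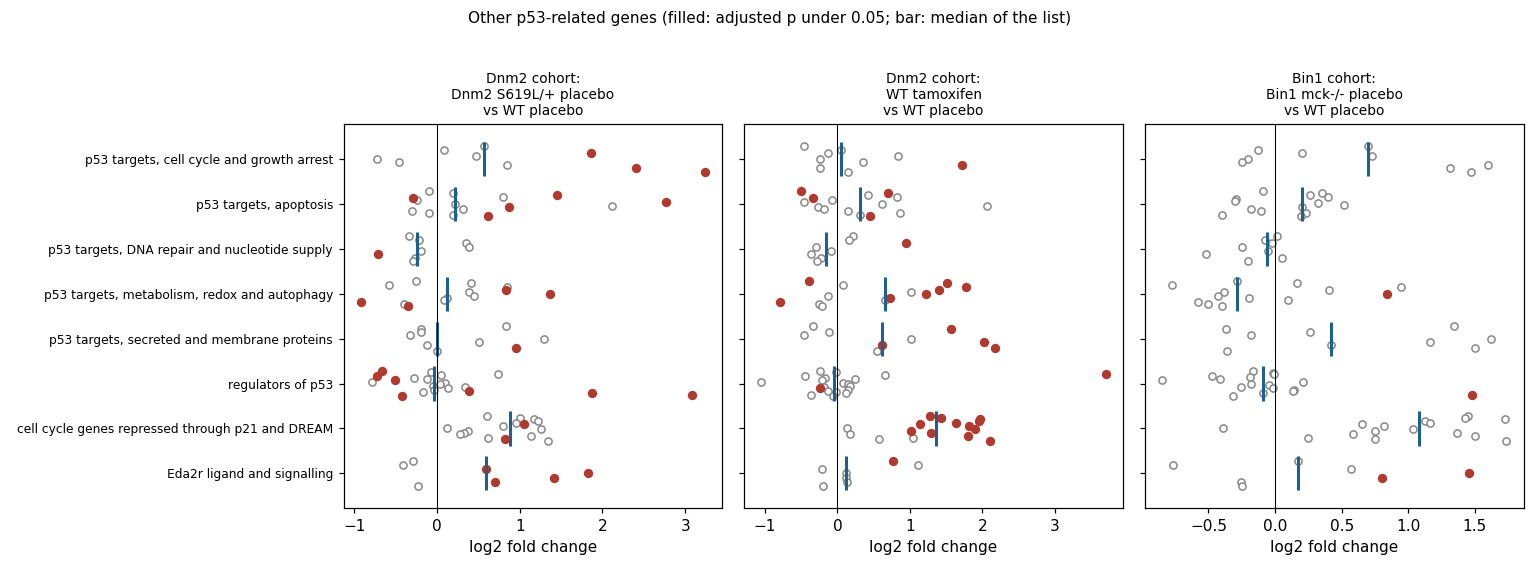
Log2 fold changes of other p53-related genes, 1 point per gene tested in each of 8 lists (rows), in *Dnm2* S619L/+ against WT on placebo, WT on tamoxifen against placebo, and *Bin1* mck-/- against WT on placebo. Filled points have an adjusted p under 0.05 and the bar is the median of a list. Cell cycle genes are mostly filled and to the right in WT on tamoxifen (12 of 16), and 4 of 7 genes around EDA2R are filled in *Dnm2* S619L/+.

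The wider pathway was followed in 8 lists of 102 genes, which were also chosen with earlier results of these data known. In *Dnm2* S619L/+ against WT on placebo, 19 of the 97 genes tested (19.6%) were called higher and 8 (8.25%) lower, beside 12.1% and 9.81% of all genes, with a median log2 fold change of 0.28 beside 0.02 over all genes. With library size alone the counts were 33 and 1, beside 31.1% and 3.03% of all genes. Among the targets of cell cycle and growth arrest, 3 of 9 tested were higher and none lower: *Zfp365* (3.24 ± 0.38), *Sfn*, which encodes 14-3-3σ (2.40 ± 0.32), and *Gadd45a* (1.86 ± 0.23), at 25.2 ± 3.75 CPM in WT and 91.6 ± 15.1 in the mutants. Among the apoptosis targets, 4 of 15 were higher and 1 lower, led by the membrane protein gene *Perp* (2.77 ± 0.47) and the BH3-only gene *Bid* (1.44 ± 0.33), with *Rps27l* (0.87 ± 0.20) and the RNA-binding protein gene *Zmat3* (0.61 ± 0.11). Of 13 targets in metabolism, redox and autophagy, *Gpx1*, glutathione peroxidase 1 (1.36 ± 0.18), and *Fdxr*, ferredoxin reductase (0.83 ± 0.28), were higher and *Tigar*, which lowers glycolytic flux (-0.92 ± 0.17), and *Ulk2*, an autophagy kinase (-0.35 ± 0.11), were lower. Of 8 DNA repair targets 1 was lower, and of 9 genes for secreted and membrane proteins 1 was higher, *Thbs1* (0.95 ± 0.29), thrombospondin 1.

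Of 20 regulators of p53, 3 were higher and 4 lower in *Dnm2* S619L/+ on placebo. The p53 relative *Trp63* rose by 1.87 ± 0.25, from 4.50 to 9.31 CPM in WT to 18.8 to 34.9 in the mutants. The other relative, *Trp73*, was at 0.071 CPM or less in WT and at 0.272 to 1.53 in the mutants. *Atm*, the kinase that signals DNA breaks (-0.66 ± 0.22), and *Ep300*, an acetyltransferase that acts with p53 (-0.51 ± 0.11), were lower. Of 16 cell cycle genes that p21 represses through the DREAM complex, 2 were called higher and none lower, beside 12.1% and 9.81% of all genes. The 2 were *Ccne1* (1.05 ± 0.38) and *Rrm2* (0.82 ± 0.25). All 16 estimates were above 0, with a median of 0.89, but the mutants spread widely in some of these genes. *Mki67* was at 1.18 to 7.60 CPM (mean 2.98) in the mutants and 0.712 to 2.11 in WT. *Top2a* was at 1.01 to 6.17 CPM (mean 2.52) in the mutants and 0.316 to 1.35 in WT. Replicate 4 of these mutants was the highest of its group in *Mki67*, *Top2a*, *Ccne1* and *Rrm2*, and in *Bid* named above. The same mouse had a leukocyte marker sum of 111.5 CPM, against 24.6 to 52.6 in the other mutants. The part of leukocytes in these genes was not tested. In *Bin1* mck-/- on placebo, *Trp63* was called too (1.48 ± 0.28, adjusted p = 0.0179), and so was *Gpx1* (0.84 ± 0.18, adjusted p = 0.0270), with 4 of 93 genes of the 8 lists (4.3%) called higher and 0 lower, beside 1.99% and 0.627% of all genes. DESeq2 called 10 of the 93 higher and 3 lower, beside 5.2% and 2.82% of all genes.

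Around EDA2R, 4 of the 7 genes of the list were called higher in *Dnm2* S619L/+ than in WT on placebo, beside 12.1% of all genes. They belong to the non-canonical NF-κB pathway: *Nfkb2*, which encodes the p100 precursor (1.82 ± 0.16, adjusted p = 7.79e-06), its partner *Relb* (1.42 ± 0.18), *Traf3* (0.70 ± 0.09) and *Map3k14*, the NF-κB-inducing kinase (0.59 ± 0.15). *Nfkb2* was at 10.1 to 12.6 CPM in WT and at 30.9 to 50.2 in the mutants. In *Bin1* mck-/- on placebo *Nfkb2* (1.46 ± 0.23, adjusted p = 0.0119) and *Relb* (0.80 ± 0.17, adjusted p = 0.0276) were higher than in WT, beside 1.99% of all genes. *Traf3* was at 37.97 to 47.8 CPM in WT and 31.1 to 41.1 in *Bin1* mck-/-, and its difference between mutant and WT was higher in the *Dnm2* cohort by 0.95 ± 0.15 (adjusted p = 0.00506). The ligand gene *Eda* was not among the called genes on placebo, and it was higher on tamoxifen both in WT (0.77 ± 0.19) and in *Dnm2* S619L/+ (0.68 ± 0.19).

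In WT on tamoxifen against placebo, 27 of the 97 genes of the 8 lists (27.8%) were called higher and 5 (5.15%) lower, beside 15.8% and 11.9% of all genes. With library size alone the counts were 42 and 2, beside 28.5% and 2.48% of all genes. Cell cycle genes repressed through p21 and DREAM were higher in 12 of 16 and lower in none, with a median of 1.36, in the same mice in which *Cdkn1a* was higher. *Top2a* (2.11 ± 0.56) was at 0.884 ± 0.497 CPM on placebo and 4.29 ± 2.28 on tamoxifen, and *Bub1*, *Ccna2* and *Cdk1* were higher by 1.97 ± 0.79, 1.96 ± 0.54 and 1.90 ± 0.49. Genes for secreted and membrane proteins were higher in 4 of 9: *Thbs1* (2.17 ± 0.29), *Sulf2*, a sulfatase of heparan sulfate (2.03 ± 0.29), *Igfbp3* (1.56 ± 0.31) and *Tgfa* (0.62 ± 0.24). Among the metabolic targets 5 of 13 were higher and 2 lower, with *Dram1* (1.77 ± 0.39), *Cpt1c* (1.52 ± 0.36), *Fdxr* (1.40 ± 0.28) and *Gpx1* (1.23 ± 0.17) in front. *Cdkn2a*, which encodes p16 and p19ARF, was at 0.0101 CPM or less in WT on placebo and at 0.424 to 1.14 on tamoxifen. The apoptosis targets were divided, with *Apaf1* (0.70 ± 0.22) and *Zmat3* (0.45 ± 0.11) higher and *Aen* (-0.50 ± 0.10) and *Ei24* (-0.33 ± 0.09) lower. Of the DNA repair targets, *Fancc* (0.94 ± 0.18) was higher, of the arrest targets *Psrc1* (1.71 ± 0.53), and of the regulators *Rchy1*, a ubiquitin ligase of p53, was lower (-0.25 ± 0.08), at 0.04 with library size alone. The bone, fibroblast and leukocyte markers given above were higher in these mice, and their part was not tested.

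In *Dnm2* S619L/+ on tamoxifen against placebo, 6 of 97 genes (6.19%) were called higher and 1 (1.03%) lower, beside 5.22% and 3.05% of all genes. *Sfn* fell by 1.21 on the log2 scale (SE 0.31, adjusted p = 0.0240), from 4.21 to 9.93 CPM on placebo to 2.19 to 3.43 on tamoxifen, and *Tgfa* rose by 1.1 ± 0.25 (adjusted p = 0.0100). Against WT on placebo, 36 of 97 (37.1%) were higher and 12 (12.4%) lower in these treated mutants, beside 15.8% and 13.1% of all genes, and with library size alone 54 and 1 were, beside 39.6% and 2.88%. Again above WT were *Zfp365* (2.94 ± 0.37), *Perp* (2.23 ± 0.47), *Gadd45a* (1.88 ± 0.23), *Trp63* (1.59 ± 0.25) and *Nfkb2* (1.31 ± 0.16), and cell cycle genes such as *Cdk1* (1.95 ± 0.49) were higher in 11 of 16. In these treated mutants bone markers summed to 76.6 to 2610 CPM and fibroblast markers to 2010 to 13700. In WT on placebo the sums were 30.6 to 60.8 and 907 to 1258 CPM. All 4 treated mutants had *Xist* reads, and the part of markers and sex was not tested. For *Sulf2*, the effect of tamoxifen was 1.89 ± 0.45 higher in *Dnm2* S619L/+ than in *Bin1* mck-/- mice (adjusted p = 0.0437). In *Bin1* mck-/- on tamoxifen against placebo, edgeR called 0 of the 93 genes. An unadjusted p under 0.05 was found for 17 of them (18.3%) beside 20.7% of all genes, and DESeq2 called 3 higher and 4 lower, beside 4.17% and 4.07% of all genes. Against WT on placebo, edgeR called 1 of the 93 (1.08%), beside 0.849% of all genes in either direction, namely *Gpx1* (0.96 ± 0.18, adjusted p = 0.0208).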

How the data were processed

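Polyadenylated RNA of TA muscle from 28 mice was sequenced with a stranded TruSeq protocol. The authors deposited raw read counts per Ensembl gene in 1 table per cohort, unnormalized and with 1 column per mouse. The submitters' processing notes name bcl2fastq 2.20.0.422, cutadapt 1.10, Bowtie 1.2.2, STAR 2.5.3, HTSeq 0.6.1p1 and the build mm39, without their role. Of the *Bin1* counts, 4 lines that name no gene held 22.0 to 30.8% and were left out, and 0 columns were left unused. Symbols were taken from the GENCODE M21 annotation of GRCm38, which named 52083 identifiers. Since this is another build than that of the counts, no gene coordinates are given, and the promoter windows are those of RefSeq for GRCm38.p6. Exon lengths come from the same annotation.

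Counts were analysed with edgeR 4.0.16 in R 4.3.3 (filterByExpr with a minimum count of 10, TMM factors, robust quasi-likelihood fit of all mice of a cohort, prior count 2), and p-values were adjusted over all genes tested. The SE was taken as the absolute log2 fold change fitted without the prior count, divided by the square root of F. The log2 fold changes printed beside it include the prior count. The test was checked on simulated counts. The comparisons between cohorts were fitted to all 28 mice. The alternatives were DESeq2 1.42.0, RLE factors, no filter, the filter of the study's methods (more than 10 reads in 90% of the mice), only the groups compared, log2 CPM of *Xist* as a covariate, the replicate number as a block, and each mouse left out in turn. Library size alone and only the mice with *Xist* reads were added after seeing the data.

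The 9 genes and the lists were chosen with earlier results of these data known. All 9 genes are named in each main comparison. Of other lists, at most 4 called genes with the largest change and no overlap between groups are named, and for *Cdkn1a* and *Eda2r* the 5 genes with the highest r, taken as the lower of both cohorts. Mice of a group are the replicates, and the samples of a group all differed by more than sampling noise. Same-numbered mice did not deviate together in every pair (correlations of -0.175 to 0.149 in the *Bin1* and -0.325 to 0.335 in the *Dnm2* cohort), so the numbers were not used as pairs.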

Additional observations from a re-analysis of the deposited data

Results flagged for a closer look

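Of the 63 sets of 4 mice (9 genes in 7 groups), 5 held a mouse far from the other 3 by Dixon's criterion, where chance gives about 1 in 20. In *Dnm2* S619L/+ on tamoxifen, replicate 1 had 296.78 CPM of *Cdkn1a*, against 152.05 to 176.78 in the others, and replicate 2 had 44.525 CPM of *Trp53inp1*, against 21.619 to 24.076. In *Dnm2* S619L/+ on placebo, replicate 3 had 57.308 CPM of *Eda2r*, against 122.75 to 134.12. In the same group, replicate 2 was highest in *Trp53* (23.469 CPM, against 21.094 to 21.457) and in *Phlda3* (314.46 CPM, against 216.75 to 232.47).

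Among the genes of the wider lists, 2 had a called difference between the cohorts. The difference between mutant and WT mice on placebo was 0.95 higher for *Traf3* on the log2 scale in the *Dnm2* than in the *Bin1* cohort. The effect of tamoxifen in mutants was 1.89 higher for *Sulf2*, which was at 14.6 ± 3.27 CPM on placebo and 30.4 ± 11.8 on tamoxifen in *Dnm2* S619L/+ and at 19.2 ± 6.75 and 10.9 ± 5.61 CPM in *Bin1* mck-/- (SD, n = 4). Mouse line and library protocol cannot be told apart in both. For *Sulf2*, bone markers on tamoxifen also differed, at 76.6 to 2610 CPM in *Dnm2* S619L/+ and 18.5 to 925 in *Bin1* mck-/- mice. *Xist* reads were present in all 4 *Dnm2* S619L/+ mice on tamoxifen and in 2 of 4 on placebo. The part of the bone markers was not tested. A fit with *Xist* as a covariate was among the settings, and its value for *Sulf2* is not given here.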

How the results depend on the processing

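Over the alternative settings, 665 of 720 values of the 9 genes kept their direction and their side of the threshold, 23 lost and 16 gained the call, and 16 changed sign without being called in either fit. With 1 mouse left out, 1468 of 1548 did, and 32 changed sign, none of them called. DESeq2 called 2 of the 9 genes in *Bin1* mck-/- against WT on placebo, 2 between tamoxifen and placebo in *Bin1* mck-/-, 1 in *Bin1* mck-/- on tamoxifen against WT, 1 between tamoxifen and placebo in *Dnm2* S619L/+ and 1 in the disease effect between cohorts. Only the groups compared gave 1 call in *Bin1* mck-/- on tamoxifen against WT. *Xist* as a covariate left 3 calls in *Dnm2* S619L/+ on tamoxifen against WT on placebo, and the mice with *Xist* reads alone left 2 there, 2 in *Dnm2* S619L/+ on placebo against WT and 0 in WT on tamoxifen. The cause was not tested, but the last setting has fewer mice. Over all genes it gave 1099, 1124 and 2231 calls in these comparisons, against 4461, 3382 and 4273.

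With 1 mouse left out, the calls among the 9 genes ranged from 0 to 1 in each of the 3 comparisons of the *Bin1* cohort, from 3 to 6 in *Dnm2* S619L/+ against WT on placebo, from 1 to 3 in WT on tamoxifen, from 0 to 2 in *Dnm2* S619L/+ on tamoxifen against placebo and from 3 to 7 against WT, and stayed at 0 in the 3 comparisons of effects. *Bax* in *Dnm2* S619L/+ on placebo lost its call without replicate 2 of that group (adjusted p = 0.0502).

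Library size alone turned the sign of *Mdm2* in *Bin1* mck-/- against WT on placebo (0.040), of *Bax* (-0.13), *Mdm2* (-0.11) and *Ccng1* (-0.10) with tamoxifen in *Bin1* mck-/-, of *Eda2r* (0.077), *Mdm2* (0.14) and *Rchy1* (0.035, adjusted p = 0.789) with tamoxifen in WT, of *Bax* (0.035) and *Trp53inp1* (0.0076) with tamoxifen in *Dnm2* S619L/+, of *Ccng1* (-0.0069) and *Phlda3* (-0.059) in the genotype by tamoxifen term, and between cohorts of *Ccng1* in the disease effect (0.047) and *Bax* in the tamoxifen effect (0.16). *Xist* as a covariate did so for *Mdm2* (0.035) and *Ccng1* (0.043) in *Bin1* mck-/- on tamoxifen against WT, and the mice with *Xist* reads for *Bbc3* with tamoxifen in *Dnm2* S619L/+ (0.039) and in the genotype by tamoxifen term (0.016).

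Log2 fold changes that changed sign without 1 mouse, none of them called, ranged with tamoxifen in *Bin1* mck-/- from -0.059 to 0.12 for *Bax* and from -0.0070 to 0.18 for *Ccng1*, and in *Bin1* mck-/- on tamoxifen against WT from -0.25 to 0.097 for *Bbc3*, from -0.073 to 0.049 for *Mdm2* and from -0.092 to 0.10 for *Trp53*. With tamoxifen in *Dnm2* S619L/+ they ranged from -0.037 to 0.34 for *Cdkn1a*, from -0.15 to 0.056 for *Bax*, from -0.39 to 0.021 for *Bbc3* and from -0.36 to 0.31 for *Trp53inp1*. *Phlda3* ranged from -0.13 to 0.14 in *Dnm2* S619L/+ on tamoxifen against WT, from -0.00042 to 0.31 in the genotype by tamoxifen term and from -0.012 to 0.19 in the disease effect between cohorts, and *Bax* from -0.15 to 0.052 in the tamoxifen effect between cohorts.

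The replicate number as a block gave 6 calls in *Dnm2* S619L/+ against WT on placebo, 2 in WT on tamoxifen, 0 and 6 in *Dnm2* S619L/+ on tamoxifen against placebo and against WT, 0 in the genotype by tamoxifen term and 0 with tamoxifen in *Bin1* mck-/-. No paired analysis was possible because WT mice of the *Bin1* cohort carry other numbers, in the other comparisons. Over all genes, the calls in the comparison of tamoxifen effects between cohorts ranged from 2 with only the groups compared to 1328 with DESeq2, against 274.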
